A study of Rattus norvegicus with 20 samples.

Results

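Homeobox genes of the HOX clusters and of further families that mark body regions were followed in cultured rat epithelial cells before and after transplantation into skin. The members are the genes whose symbol begins with Hoxa, Hoxb, Hoxc, Hoxd, Pax, Dlx, Msx, Barx, Pitx, Otx, Emx, Irx, Meis, Pbx, Lhx or Nkx followed by a number, without Lhx2, together with the sine oculis genes Six3, Six4 and Six6, and that have a probe set annotated with this symbol alone. There were 72 such genes among 14506 named genes and 29215 probe sets, 22 of them in the HOX clusters and 50 outside. Each had a single probe set, and all 72 were found in the RefSeq gene table under the same symbol. The rule used gene names only and no measured value.

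Cells came from 5 hairless epithelia, those of the oral mucosa, the vagina, the esophagus, the footpad and the trachea. The donors were Sprague-Dawley rats of postnatal day 200 that carry an EGFP transgene expressed throughout the body. All cells, at both stages, were grown on irradiated 3T3-J2 mouse fibroblasts, and EGFP-positive cells were sorted. The sort selected against mouse cells but not against rat cells of another type, and the purity of the sorted samples is not given. The groups after transplantation were cultured from cells recovered from grafts in newborn mouse skin on the backs of nude mice, and the groups before transplantation from the tissues themselves. Each of the 10 groups had 2 duplicate cultures, one array each, for 20 arrays. Nothing states that the duplicates came from separate animals, so p-values measure only the spread between these cultures. Values are log2 expression values, and those of different probe sets are not comparable with each other as levels. A member was called where the adjusted p (limma, Benjamini-Hochberg over all probe sets) was under 0.05 and the difference over 2-fold, which is 1.0 on the log2 scale.

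Homeobox proteins are transcription factors that bind DNA through a homeodomain. Most but not all Pax proteins carry the whole or a part of one beside a paired domain. HOX genes lie in clusters and are expressed along the body axis in the order of their position in the cluster, low paralog numbers toward the head and high ones toward the tail and the ends of the limbs. Pbx and Meis proteins bind DNA together with HOX proteins, whereas Pax, Pitx, Otx, Nkx, Dlx and Irx genes mark regions such as the pharynx, jaw, forebrain, lung and genital ducts. Adult cells keep part of these region-dependent patterns in culture.

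Of the 72 members, 39 lay above a low level, the 40th percentile of all probe sets on the array (4.61 to 4.92), on both arrays of all 10 groups. A further 21 did so in some groups and 12 in none, and the file gives no detection call. Group means spanned more than 1.0 on the log2 scale in 26 members and more than 2.0 in 10, so that most members differed little. A total of 26 members were above the low level in all groups and had a span of at most 1.0. Values of a group under the low level may be probe background, so that a difference against such a group is at most a lower limit of its size. In each family the member with the highest group mean was taken as an example. Hoxb4 was among the flat ones, with group means from 7.21 to 7.71. Meis1, a cofactor of HOX proteins, spanned 7.37 to 8.22. Hoxd1 spanned 6.01 to 7.01 and Lhx3, a LIM homeobox gene of pituitary and motor neurons, 5.77 to 6.44. In contrast, the corresponding members of the other families varied widely, and Hoxa7, Hoxc4, Pax9, Dlx5, Pitx1, Irx3 and Nkx2-3 are described below with their values.

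Members differed between after and before transplantation most often in vagina. There 11 of 72 members passed the test after versus before, or 15.3%, against 2.21% of all probe sets. Of these, 5 were higher after (0.534% of all probe sets) and 6 lower (1.68%). By comparison, 2 members were called in oral mucosa (2.78%, against 3.65% of all probe sets), 1 in esophagus (1.39%, against 1.07%), 5 in footpad (6.94%, against 6.92%) and 0 in trachea (against 1.38%). In the last 4 tissues the share of members was thus close to or below that of all probe sets. In trachea 11 members had an unadjusted p under 0.05, and their differences were all under 2-fold. The tissues also differed from each other in response. An F test over the responses called 25 members, or 34.7%, against 18.5% of all probe sets. No member was called in the mean response over the 5 tissues (limma on group means, 0% of all probe sets, 8 members with an unadjusted p under 0.05).

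**Figure D1:**
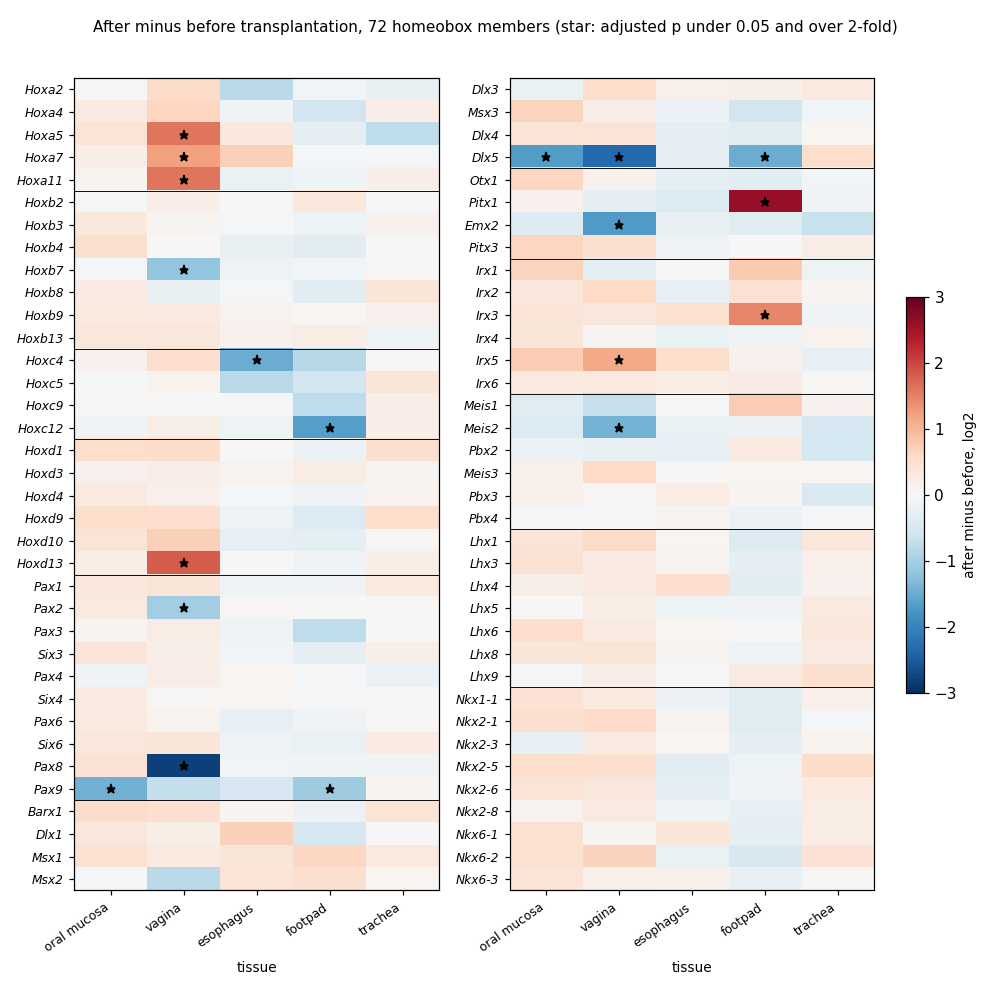
After minus before transplantation (log2, color scale) for the 72 members (rows, lines between families) in the 5 tissues (columns), with a star for each called member. The vagina column holds 11 stars, 5 of them higher after, and the trachea column none.

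Of the 5 members that rose in vagina, 4 were HOX genes, and the 2 with the highest paralog numbers were seen in vagina alone. Hoxd13, the last gene of the Hoxd cluster and a regulator of digits and of the lower urogenital tract, was at 6.60 and 6.55 after, against 4.69 and 4.80 before. On the arrays of the other 4 tissues it stayed between 4.28 and 5.02 at both stages. Both vagina arrays after transplantation thus lay above all 18 others. The difference after versus before in vagina was 1.83 ± 0.16 (SE, adjusted p = 2.05e-06, limma), or 3.55-fold. Hoxa11, which patterns the uterus and the forearm in the mouse, was at 6.76 and 6.50 after, against 4.78 and 5.27 before. Elsewhere it lay between 4.24 and 4.83. Its difference was 1.60 ± 0.18 (adjusted p = 3.27e-05). Hoxd13 and Hoxa11 had the most similar profiles of any member to each other over the 10 group means (Pearson's r = 0.97), followed for both by Hoxd10 (r = 0.83 with Hoxd13 and 0.81 with Hoxa11). These correlations are descriptions and rest on a single group, vagina after.

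Hoxa5 and Hoxa7, from the middle of the Hoxa cluster, also rose in vagina. Hoxa5, which patterns the trachea, lung and neck vertebrae in the mouse, was at 6.69 and 6.91 after, against 5.45 and 4.96 before, a difference of 1.59 ± 0.25 (adjusted p = 0.000494). In esophagus it was at 6.61 and 6.44 after, against 6.24 and 6.17 before, and in footpad at 6.36 and 6.16 after, against 6.51 and 6.58 before. In trachea it was at 4.69 and 4.83 after, against 5.57 and 5.47 before, and only the arrays before lay above the low level. In oral mucosa neither stage did so on both arrays (5.12 and 4.80 after, against 4.02 and 5.09 before). The oral mucosa duplicates before differed from each other by more than the stages did. Hoxa7 was at 7.13 and 6.97 in vagina after, against 5.77 and 5.88 before (1.23 ± 0.19, adjusted p = 0.000458). In esophagus it was at 6.89 and 6.98 after, against 6.19 and 6.23 before, and in footpad at 7.05 and 6.83 after, against 6.92 and 7.04 before. It had a profile close to that of Hoxa5 (r = 0.92 over the 10 group means). The fifth member that rose, Irx5 of the Iroquois family, was at 7.26 and 7.49 after, against 6.19 and 6.27 before (1.14 ± 0.13, adjusted p = 3.66e-05). Esophagus before, at 6.22 and 6.33, was about as low as vagina before.

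The 6 members that fell in vagina included 3 genes of the genital ducts and the kidney. Pax8, needed for the thyroid and for the epithelium of the female genital ducts in the mouse, was at 4.54 and 4.91 after, against 7.34 and 7.71 before. It lay between 4.37 and 5.22 on all 16 arrays of the other tissues, so that it was high in vagina before and nowhere else. The difference was -2.80 ± 0.21 (adjusted p = 6.37e-07). One of the arrays after lay under the low level, and against that level the fall was at least 6.49-fold. Emx2, a gene of the forebrain and the urogenital ridge, was at 5.50 and 5.62 after, against 7.21 and 7.32 before (-1.71 ± 0.16, adjusted p = 5.97e-06). Pax2, which is closely related to Pax8, was at 5.46 and 5.55 after, against 6.63 and 6.46 before (-1.04 ± 0.14, adjusted p = 0.000105). The Pax2 difference was -0.95 without vagina before replicate 1 and -0.99 without vagina after replicate 1, just under 2-fold.

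The other 3 were Dlx5, Meis2 and Hoxb7. Dlx5, a gene of the jaw and the external genitalia, was at 5.08 and 5.41 after, against 7.61 and 7.53 before (-2.32 ± 0.17, adjusted p = 4.97e-07). It also fell in oral mucosa, to 5.50 and 5.37 after, against 7.28 and 6.97 before (-1.69 ± 0.17, adjusted p = 5.54e-06), and in footpad, to 5.27 and 5.33 after, against 6.85 and 6.74 before (-1.5 ± 0.17, adjusted p = 8.67e-06). The 10 arrays after transplantation thus lay within a narrow band, from 5.08 to 5.50, whereas those before spanned 4.34 to 7.61. Meis2, a cofactor of HOX proteins, was at 6.06 and 6.22 in vagina after, against 7.53 and 7.61 before (-1.43 ± 0.15, adjusted p = 1.87e-05). Hoxb7 was at 6.02 and 5.65 after, against 6.85 and 7.18 before (-1.18 ± 0.17, adjusted p = 0.000183). Unlike the 4 HOX genes that rose, it was lower after, and its difference was -0.99 without vagina after replicate 2. The remaining 61 members moved by -0.82 to 0.72, and the median over all members was 0.24, against 0.06 over all probe sets.

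**Figure D2:**
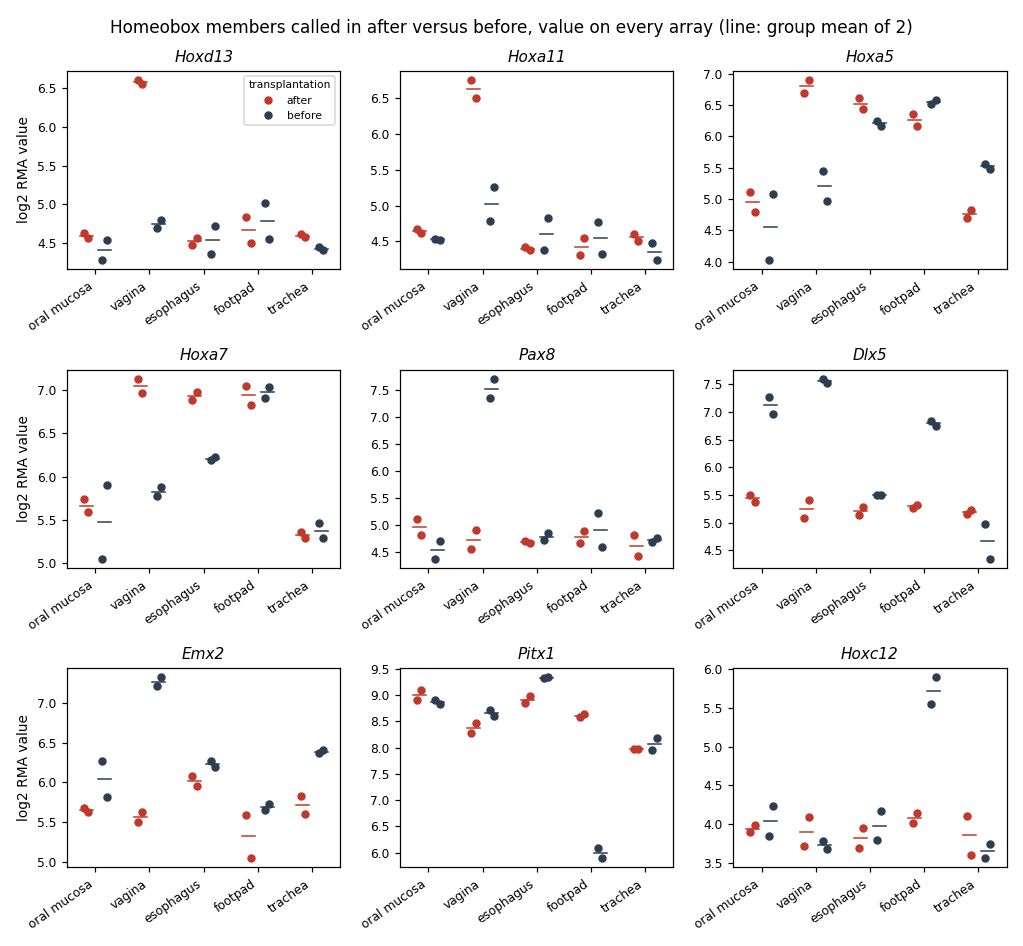
Log2 values of 9 members on each of the 20 arrays (points), by tissue, with after in red left of before in dark blue and a line at the mean of the 2 duplicates. Hoxd13 and Hoxa11 stood out only in vagina after, at 6.50 to 6.76, Pax8 only in vagina before, Pitx1 was low only in footpad before, and Hoxc12 was high only there.

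The sequences before the annotated starts of 4 genes are shown because their values divided 1 tissue and stage from the rest (Hoxd13, Hoxa11 and Pax8) or 1 tissue at both stages (Nkx2-3, described below). They are the 250 bases before the start, from RefSeq on GRCr8, 5′ to 3′ on the strand of the gene. Hoxd13 lies at chr3:79977827-79978076 (plus strand), Hoxa11 at chr4:82676802-82677051 (minus strand), Pax8 at chr3:27640632-27640881 (minus strand) and Nkx2-3 at chr1:252427106-252427355 (plus strand). Capitals mark 3 common promoter motifs, the box CCAAT, the box TATAAA and the GC box CCGCCC, searched on both strands and with overlaps counted.
Hoxd13: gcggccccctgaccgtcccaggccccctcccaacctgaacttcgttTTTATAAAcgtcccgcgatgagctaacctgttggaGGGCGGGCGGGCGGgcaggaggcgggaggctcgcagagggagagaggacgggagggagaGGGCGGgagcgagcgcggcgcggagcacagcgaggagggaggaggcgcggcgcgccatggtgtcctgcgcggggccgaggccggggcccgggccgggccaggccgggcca
Hoxa11: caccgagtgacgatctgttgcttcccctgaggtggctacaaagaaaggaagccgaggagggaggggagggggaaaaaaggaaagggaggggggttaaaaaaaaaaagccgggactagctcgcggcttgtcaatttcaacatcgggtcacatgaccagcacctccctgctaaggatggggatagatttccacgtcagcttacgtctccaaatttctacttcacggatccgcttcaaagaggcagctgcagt
Pax8: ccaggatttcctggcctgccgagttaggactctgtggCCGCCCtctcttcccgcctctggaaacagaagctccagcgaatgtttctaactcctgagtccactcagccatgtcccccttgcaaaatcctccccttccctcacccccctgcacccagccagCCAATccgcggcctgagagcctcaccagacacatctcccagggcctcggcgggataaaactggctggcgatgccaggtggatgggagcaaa
Nkx2-3: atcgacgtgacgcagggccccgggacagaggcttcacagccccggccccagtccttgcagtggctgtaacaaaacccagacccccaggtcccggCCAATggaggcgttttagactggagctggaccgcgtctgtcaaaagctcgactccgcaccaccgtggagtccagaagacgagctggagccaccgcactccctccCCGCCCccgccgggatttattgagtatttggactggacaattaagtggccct
The Hoxd13 window held 4 matches to CCGCCC, 3 of them overlapping, and a TATAAA that overlaps its own reverse complement. That of Hoxa11 held none of the 3 motifs, although the values of both genes moved together in vagina. The Pax8 and Nkx2-3 windows each held 1 CCAAT and 1 CCGCCC. Windows were found for 46 of the 72 members, 48 in all. CCGCCC was in 58.3% of them and in 30.5% of all 33469 windows of the same length, CCAAT in 50.0% and 34.0%, and TATAAA in 4.17% and 12.9%. The CG dinucleotide occurred 30 times in the Hoxd13 window, 11 in that of Hoxa11, 9 in that of Pax8 and 17 in that of Nkx2-3, and the median was 14.5 over members and 5.0 over all windows. A match is a description of the letters and no evidence that a factor binds.

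Cells of vagina, footpad and trachea also differed between the stages in genes used as markers of fibroblasts. Of 15 measured fibroblast markers, 0 rose and 8 fell in vagina, 0 rose and 9 fell in footpad and 0 rose and 7 fell in trachea, whereas 0 were called in esophagus and 1, Vim, rose in oral mucosa. Over all probe sets, 2.21% were called in vagina, 6.92% in footpad, 1.38% in trachea, 1.07% in esophagus and 3.65% in oral mucosa. The summed log2 value of the 15 markers was 81.7 on both vagina arrays after, against 102.0 and 103.6 before. It was 83.5 and 84.5 in footpad after, against 105.0 and 105.3 before, and 84.6 and 85.5 in trachea after, against 102.3 and 103.9 before. In oral mucosa it was 91.0 on both arrays after, against 82.3 and 84.2 before, and in esophagus 82.3 and 82.8 after, against 81.3 and 83.8 before. Before transplantation 13 markers lay above the low level on each vagina and footpad array and 14 on each trachea array. The 7 markers of basal epithelium, such as Krt14 and Tp63, were above it on all arrays, and their summed log2 values spanned only 76.6 to 79.0. Bulk RNA does not give the cells that the marker RNA came from, and fewer cells of a type cannot be told apart from less RNA per cell.

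The 6 members that fell in vagina and the 3 that fell in footpad were thus lower at the stage at which the fibroblast markers were lower. The part of fibroblast RNA in these results was not tested. Fibroblasts were not measured by themselves in any tissue, so that levels in other groups do not give the source of the RNA. The levels in other groups of the members that fell, and of some that rose, were as follows. Before transplantation, Emx2 lay between 5.65 and 6.40 and Meis2 between 5.63 and 7.68 in the tissues other than vagina. Pax9 lay between 7.64 and 9.06 before in the tissues other than footpad. Pax8 was at 4.68 and 4.75, Pax2 at 5.54 and 5.44, Hoxb7 at 5.48 and 5.46 and Dlx5 at 4.98 and 4.34 in trachea before, where the fibroblast sum was as high as in vagina before. Hoxc12 was at 3.56 and 3.75 in trachea before. Pitx1, low in footpad before, was at 7.95 and 8.19 in trachea before and at 8.71 and 8.60 in vagina before. Dlx5 was at 7.28 and 6.97 in oral mucosa before, where the sum was low. Hoxd13 and Hoxa11 were higher in vagina after than before, whereas the fibroblast sum was lower. The mucosal markers Krt4, Krt13, Sprr3 and Mal, which mark wet stratified epithelia, moved as well, and 4 of 4 fell in vagina and in oral mucosa and 3 of 4 in esophagus, whereas 1 of 4 rose in footpad and in trachea. The shares of all probe sets called in each tissue are those given with the fibroblast markers. The part of the mucosal markers in the results was not tested either.

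**Figure D3:**
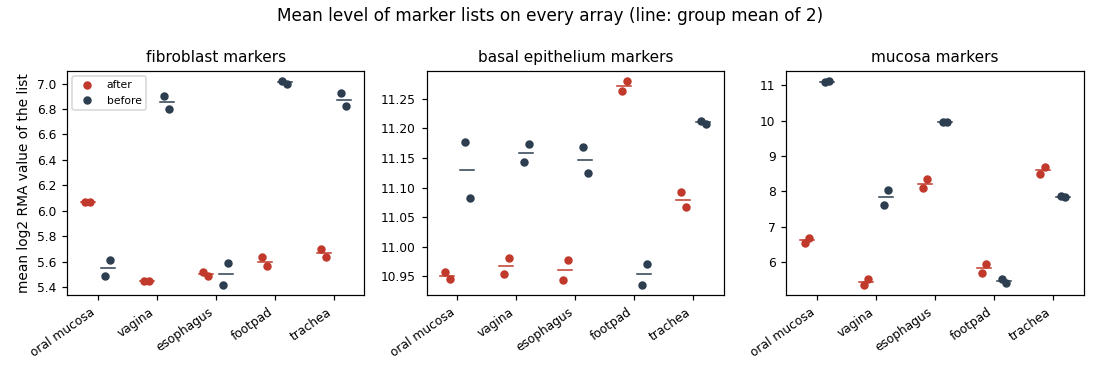
Mean log2 value of 15 fibroblast, 7 basal epithelium and 4 mucosa markers on each array (points), by tissue, with after in red left of before in dark blue and a line at the mean of the 2 duplicates; the 3 panels have different vertical scales. The fibroblast mean was 5.45 in vagina after, against 6.85 before, and 5.60 in footpad after, against 7.01 before.

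In footpad, 2 members rose (4.28% of all probe sets) and 3 fell (2.64%). Pitx1, which sets hindlimb identity and is also a gene of the mouth ectoderm, was at 8.58 and 8.63 after, against 6.08 and 5.90 before (2.62 ± 0.11, adjusted p = 5.20e-10), or 6.13-fold. On the arrays of the other tissues it lay between 7.95 and 9.34. Footpad before was thus the one group in which Pitx1 was low, and after transplantation it lay among the rest. Irx3 was at 8.32 and 8.38 after, against 6.97 and 6.81 before (1.46 ± 0.13, adjusted p = 5.78e-07). Footpad after was the group with the highest Irx3, followed by trachea.

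Hoxc12, a posterior gene of the Hoxc cluster, was at 4.01 and 4.14 in footpad after, against 5.55 and 5.89 before (-1.65 ± 0.19, adjusted p = 1.21e-05). Both arrays after lay under the low level, and against that level the fall was at least 1.89-fold. All 18 other arrays lay between 3.56 and 4.23. Footpad before was the only group in which Hoxc12 was above the low level. Pax9, a gene of the pharyngeal pouches, teeth and tongue papillae, fell in footpad to 6.46 and 6.08 after, against 7.10 and 7.58 before (-1.07 ± 0.14, adjusted p = 4.23e-05), and this difference was -0.83 without footpad before replicate 2 and -0.88 without footpad after replicate 2. It fell also in oral mucosa, to 7.07 and 7.03 after, against 8.56 and 8.43 before (-1.44 ± 0.14, adjusted p = 5.19e-06). In esophagus the one call was Hoxc4, at 4.88 and 5.46 after, against 6.86 and 6.44 before (-1.48 ± 0.17, adjusted p = 8.61e-05).

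Few members were called in more than 1 tissue, which does not show the direction of the uncalled responses. Dlx5 fell in 3 tissues and Pax9 in 2, and all other calls were made in 1 tissue each. The response of Pitx1 in footpad (2.62) and in esophagus (-0.41) differed by 3.03 (F test over the 5 responses, adjusted p = 1.34e-08) and that of Dlx5 in trachea (0.53) and in vagina (-2.32) by 2.86 (adjusted p = 2.22e-06). Vagina stood apart most often. In 12 members the response in vagina differed from the mean response of the other 4 tissues, or 16.7%, against 1.66% of all probe sets. This held for Hoxd13 (1.77 ± 0.17, adjusted p = 1.67e-05) and Hoxa11 (1.61 ± 0.21, adjusted p = 0.000185). The HOX genes as a whole had a median response of 0.31 in vagina, with 20 of 22 above 0, and of -0.16 in footpad, with 4 of 22 above 0. The 50 other members had medians of 0.22 and -0.14, and the medians over all probe sets were 0.06 and -0.03, so that the small shifts were not particular to HOX genes.

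The tissue of origin was then read from the members at each stage. Before transplantation 22 members differed among the 5 tissues (F test and over 2-fold between the highest and lowest group mean), or 30.6%, against 9.05% of all probe sets. After transplantation 14 did, or 19.4%, against 11.9%. The 11 members that differed at both stages were Pax9, Pitx1, Hoxa5, Hoxa7, Hoxc4, Irx1, Irx3, Meis2, Msx2, Nkx2-3 and Otx1, or 50.0% of those before and 78.6% of those after. Over all probe sets, 1737 differed at both stages, 65.7% of those before and 49.8% of those after. Msx1, a gene of skin appendages and teeth, Hoxd13 and Hoxa11 differed after transplantation without being called before. Several members were near the 2-fold limit. The range after was 0.95 for Hoxc4 without esophagus after replicate 2, 0.99 for Msx1 without esophagus after replicate 1, 0.94 for Pitx1 without oral mucosa after replicate 2, and 0.97 and 0.85 for Irx1 without esophagus after replicate 2 and trachea after replicate 1. The range before was 0.99 for Hoxa2 and for Hoxc9 without esophagus before replicate 1 and 0.97 for Pax2 without vagina before replicate 1.

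Each tissue was also set against the mean of the other 4. Before transplantation 17 pairs of member and tissue were higher, 6 in vagina (0.544% of all probe sets), 5 in esophagus (0.284%), 3 in footpad (0.558%), 2 in trachea (0.719%) and 1 in oral mucosa (1.55%). After transplantation there were 9, of which 3 were in vagina (0.342%), 3 in oral mucosa (0.777%) and 1 each in esophagus (0.541%), footpad (2.32%) and trachea (0.907%). Only 2 pairs were called at both stages, or 11.8% of those before and 22.2% of those after, against 19.8% and 14.8% over all probe sets. Of the 17 pairs before, 13 were still above the mean of the other tissues after, or 76.5%, against 58.6% over all probe sets (626 of 1068), mostly by less than 2-fold. A tissue far from the rest pulls the mean of the others. The pair of Pitx1 and esophagus before (1.43 ± 0.08, adjusted p = 1.23e-07) rests in part on the low value of footpad, and Dlx5, called for vagina before (1.55 ± 0.13, adjusted p = 5.40e-06), was nearly as high in oral mucosa.

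**Figure D4:**
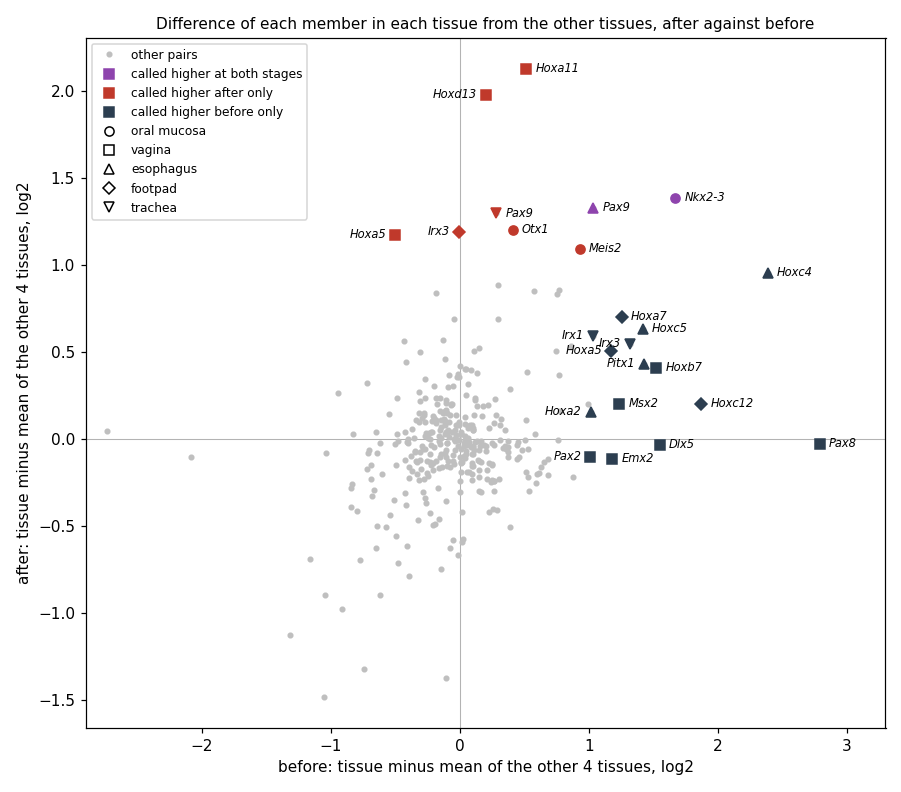
Difference of each member in each tissue from the mean of the other 4 tissues (log2), after (vertical) against before (horizontal), with the pairs called higher in color, the shape giving the tissue, and all other pairs in gray. Nkx2-3 in oral mucosa and Pax9 in esophagus were called at both stages, Hoxd13 and Hoxa11 in vagina lay near 2.0 after but under 1.0 before, and Pax8 in vagina lay at 2.79 before and near 0 after.

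Nkx2-3, a gene known from gut mesenchyme and spleen, marked oral mucosa at both stages. It was at 7.73 and 7.75 in oral mucosa after, against 6.23 to 6.48 in the other tissues after, and at 8.03 and 7.95 in oral mucosa before, against 5.94 to 6.57 in the other tissues before. No array of another tissue came near. The difference from the mean of the others was 1.38 ± 0.09 after (adjusted p = 1.96e-07) and 1.67 ± 0.09 before (adjusted p = 1.69e-08). Otx1, a gene of the forebrain and midbrain, was at 8.57 and 8.66 in oral mucosa after, against 6.86 to 7.98 in the other tissues after, a difference of 1.20 ± 0.07 (adjusted p = 7.22e-08). Before transplantation it was at 7.91 and 8.02 in oral mucosa and no higher than in footpad and trachea. Meis2 was at 7.23 and 7.15 in oral mucosa after, against 5.76 to 6.39 in the other tissues after (1.09 ± 0.12, adjusted p = 1.67e-05), and 0.99 where each array was centered on its median.

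Pax9 was high in esophagus and trachea after transplantation. It was at 8.46 and 8.58 in esophagus after and at 8.53 and 8.45 in trachea after, against 6.08 to 7.07 in the other 3 tissues after. Before transplantation it was at 9.06 and 8.96 in esophagus and at 8.38 and 8.43 in trachea, against 8.56 and 8.43 in oral mucosa, 7.64 and 7.69 in vagina and 7.10 and 7.58 in footpad. Esophagus was 1.33 ± 0.11 above the mean of the others after (adjusted p = 2.55e-06) and 1.03 ± 0.11 before (adjusted p = 3.87e-05). The value before was 0.99 without esophagus before replicate 1 and 0.97 without footpad before replicate 1, so that 1 pair rather than 2 was then called at both stages. Trachea was 1.29 ± 0.11 above the others after (adjusted p = 1.96e-06) and 0.28 before, which was not called.

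Hoxc4, a gene of the neck and upper trunk, set esophagus apart. It was at 4.88 and 5.46 in esophagus after, against 3.79 to 4.68 in the other tissues after, and at 6.86 and 6.44 in esophagus before, against 4.02 to 4.77 in the other tissues before. Esophagus was the only tissue with both arrays of a stage above the low level, so that its differences from the others are lower limits. The difference fell just under 2-fold after (0.95 ± 0.14, adjusted p = 0.000206), against 2.39 ± 0.14 before (adjusted p = 8.98e-08). The related Hoxc5 was at 4.51 and 4.23 in esophagus after, against 3.60 to 3.93 in the other tissues after, and at 5.20 and 5.17 before, against 3.43 to 4.32. For Hoxc5 only the esophagus arrays before lay above the low level, so that the values after may be probe background. Hoxa2, a gene of the hindbrain and the second pharyngeal arch, was called for esophagus before only (1.02 ± 0.12, adjusted p = 8.89e-05), and its difference was 0.76 without esophagus before replicate 1 and 1.00 without trachea before replicate 1.

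Irx3 and Irx1 were the members called for trachea before. Irx3 was at 7.82 and 7.85 in trachea after and at 8.0 and 7.89 before, against 6.13 to 7.11 in the other tissues before (1.32 ± 0.10, adjusted p = 5.77e-07). Footpad exceeded trachea after. Irx1 was at 6.63 and 6.25 in trachea after and at 6.53 and 6.66 before, against 4.91 to 6.48 in the other tissues before (1.03 ± 0.14, adjusted p = 0.000186), and its difference before was 0.96 to 0.99 without oral mucosa before replicate 1, esophagus before replicate 1 or trachea before replicate 2. Footpad before was called for Hoxc12, Hoxa5 and Hoxa7, and vagina before for Pax8, Dlx5, Hoxb7, Msx2, Emx2 and Pax2. Msx2 was at 4.94 and 4.77 in vagina after and at 5.53 and 5.80 before, against 4.08 to 4.93 in the other tissues before (1.24 ± 0.12, adjusted p = 1.27e-05). For Pax2 the difference before was 0.93 to 1.00 without vagina before replicate 1, esophagus before replicate 1 or trachea before replicate 2.

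Nkx2-1, which specifies the lung and the trachea, did not set trachea apart by 2-fold. It was at 6.56 and 6.77 in trachea after and at 6.64 and 6.77 before. The other tissues spanned 5.89 to 6.48 after and 5.54 to 6.35 before, so that both trachea arrays were the highest at each stage, by a small margin. Nkx2-1 differed among tissues before (F test, range 1.15, adjusted p = 0.00208), and its range was 0.74 after. The most similar members over the 10 group means were Six4 (r = 0.73), Hoxb9 (0.70) and Nkx1-1 (0.64). The 5 measured airway markers include Nkx2-1 itself, beside secretory and ciliated cell genes. Their mean log2 value was 5.04 and 5.05 in trachea after and 5.13 and 5.20 before. This was close to the 4.62 to 5.16 of the other tissues over both stages. Of these markers, Scgb1a1 (3.44 and 3.36) and Bpifa1 (3.43 and 3.22) lay under the low level in trachea after.

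**Figure D5:**
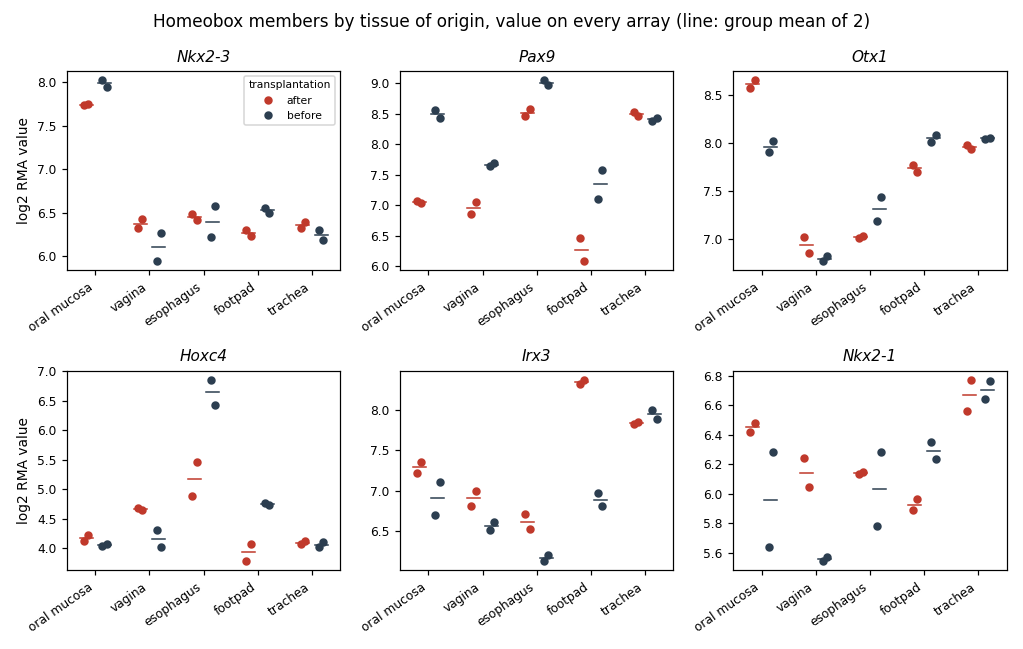
Log2 values of 6 members on each of the 20 arrays (points), by tissue, with after in red left of before in dark blue and a line at the mean of the 2 duplicates. Nkx2-3 was high in oral mucosa at both stages, Hoxc4 in esophagus, and Nkx2-1 was highest in trachea by less than 2-fold.

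Across members, the deviation of a tissue from the mean of the 5 tissues was compared between the stages as a description. Pearson's r over the 72 members was 0.66 for esophagus, 0.64 for oral mucosa, 0.44 for trachea, 0.27 for footpad and 0.17 for vagina, with a mean of 0.44. Between different tissues the mean was -0.11, from -0.41 to 0.15. Over the 22 HOX genes the means were 0.53 for the same tissue and -0.12 for different tissues, and over all probe sets 0.15 and -0.04. Members are not independent replicates, and deviations at a stage share the mean that they are taken from. In HOX genes, trachea after was more similar to oral mucosa before (r = 0.68) than to trachea before (0.26).

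Other regulators linked to HOX genes and to regional identity were read beside the members. Of 12 measured Polycomb genes, which keep HOX genes silent, 1 was called in each of 3 tissues, Ezh1 in every case. This histone methyltransferase was at 9.41 and 9.49 in footpad after, against 7.87 and 8.11 before (1.46 ± 0.11, adjusted p = 1.42e-07). It was at 8.0 and 8.16 in vagina after, against 9.16 and 9.32 before (-1.16 ± 0.11, adjusted p = 4.63e-06), and fell by 1.12 in oral mucosa. Its direction thus differed between footpad and the other 2. None of 5 Trithorax and demethylase genes was called after versus before in any tissue, and their medians were -0.40 to -0.16. Of 14 genes of retinoic acid and caudal control, 2 rose and 1 fell in footpad, 1 fell in vagina, 2 fell in oral mucosa and 0 were called in esophagus and trachea. Beside these counts, 6.92% of all probe sets were called in footpad, 2.21% in vagina, 3.65% in oral mucosa, 1.07% in esophagus and 1.38% in trachea. Crabp2, which carries retinoic acid in the cell, was at 8.83 and 9.03 in vagina after, against 11.54 and 11.62 before (-2.65 ± 0.13, adjusted p = 1.32e-08). Aldh1a1, an enzyme that makes retinoic acid, was at 7.05 and 7.38 in footpad after, against 4.32 and 4.54 before (2.79 ± 0.18, adjusted p = 4.88e-08), and both arrays before lay under the low level (at least 5.14-fold against it). In footpad Cyp26b1, which degrades it, fell by 1.76, and Cdx2, a caudal homeobox gene, rose by 1.33.

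Of 27 further homeobox genes outside the families, 2 rose and 1 fell in vagina and in oral mucosa, 2 rose and 3 fell in footpad, 2 rose in esophagus and 1 rose and 1 fell in trachea. Of all probe sets, 2.21% were called in vagina, 3.65% in oral mucosa, 6.92% in footpad, 1.07% in esophagus and 1.38% in trachea. Hopx, a homeodomain protein without DNA binding that marks differentiating keratinocytes, rose in footpad by 2.36, in trachea by 1.60 and in vagina by 1.49, and fell by 1.32 in oral mucosa. Prrx1, a mesenchymal gene, changed by -2.0 in footpad, -1.64 in vagina and -1.32 in trachea, all called, the 3 tissues in which fibroblast markers also fell. Isl1 rose in esophagus by 1.78 and in vagina by 1.15, and fell by 1.68 in footpad (under the low level after, at least 2.66-fold against it). Of 18 other regional factors, 10 differed among tissues before and 7 after (9.05% and 11.9% of all probe sets). Sim2 was at 3.99 and 4.15 in esophagus after, against 6.97 and 6.92 before (-2.88 ± 0.13, adjusted p = 2.17e-08), and lay between 3.75 and 4.57 elsewhere. Both esophagus arrays after lay under the low level (at least 4.63-fold against it). Gata3, a factor of epidermis and hair follicle, was at 9.29 and 9.27 in footpad after, against 7.69 and 7.53 before (1.67 ± 0.13, adjusted p = 1.81e-07), rose in oral mucosa by 1.48 and fell by 1.37 in esophagus. Sox2 fell by 1.97 in oral mucosa, and Tfap2b rose in vagina by 1.34 (under the low level before, at least 1.88-fold against it).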

How the data were processed

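Labeled cDNA from 100 ng of total RNA per array had been hybridized to Affymetrix Rat Gene ST arrays. The deposited values are log2 expression values that the authors made with RMA (background correction, quantile normalization, probe summary) in Affymetrix Expression Console, the sources giving no version of it. The 29215 probe sets had values from 1.52 to 14.0 and array medians of 5.31 to 5.55, and the number of arrays limits the precision. Probe sets were named from the platform annotation, in which 15310 had 1 symbol, 323 several and 13582 none. All 20 arrays were fitted with limma 3.58.1 in R 4.3.3 (10 groups, no further terms, 10 residual and 3.64 prior degrees of freedom), with Benjamini-Hochberg adjustment over all probe sets. The contrasts were after versus before in each tissue, the F test among tissues and 1 tissue minus the mean of the rest at each stage, and the difference of responses. The fit was tested on simulated data. The members, gene lists and tests were chosen with earlier results of these data known. Named members were all those called after versus before, up to 5 for each tissue and stage, the 12 with the largest range at both stages, the 10 with the largest difference of responses, 4 markers (Hoxd13, Hoxa11, Hoxa5 and Nkx2-1) with the 3 members most similar to each, and the member with the highest mean of each family, and of other lists up to 4 genes. The low level was set as a percentile of all probe sets because only 59 olfactory receptor probe sets were annotated, fewer than the 100 required. Roman numerals in the sample titles, which the labels do not explain, were not used. The study counts culture passages in such numerals, and those of the titles differ between the stages in all tissues but vagina. If they are passages, passage and transplantation cannot be told apart in those tissues. Alternatives were array centering, a filter on low probe sets, a 1.5-fold limit, limma-trend, fewer arrays, a replicate block and leaving out each array.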

Additional observations from a re-analysis of the deposited data

Results flagged for a closer look

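The response (after minus before transplantation) differed between tissues in 25 members. The test was a limma F test over the 5 responses, with over 2-fold between the most positive and the most negative response. Its adjusted p ran from 1.34e-08 for Pitx1 to 0.0499 for Nkx6-2. The difference between the most positive and the most negative response, on the log2 scale, was highest for Pax8 3.22 (oral mucosa over vagina), Pitx1 3.03 (footpad over esophagus) and Dlx5 2.86 (trachea over vagina). Vagina had the most positive response also for Hoxa5 2.35 (vagina over trachea), Hoxc4 1.98 (vagina over esophagus), Hoxd13 1.94 (vagina over footpad), Hoxa11 1.81 (vagina over esophagus), Irx5 1.40 (vagina over trachea), Hoxa2 1.38 (vagina over esophagus), Hoxa7 1.28 (vagina over trachea), Hoxa4 1.19 (vagina over footpad) and Nkx6-2 1.18 (vagina over footpad). It had the most negative response for Emx2 1.49 (esophagus over vagina), Meis1 1.45 (footpad over vagina), Pax2 1.30 (oral mucosa over vagina), Msx2 1.30 (footpad over vagina), Meis2 1.26 (footpad over vagina), Hoxb7 1.21 (trachea over vagina) and Irx1 1.07 (footpad over vagina). The remaining differences were Hoxc12 1.85 (trachea over footpad), Irx3 1.57 (footpad over trachea), Pax9 1.52 (trachea over oral mucosa), Msx3 1.21 (oral mucosa over footpad), Dlx1 1.19 (esophagus over footpad) and Hoxc5 1.18 (trachea over esophagus). Hoxa4 and Nkx6-2 were close to the threshold, as were the folds of Irx1. The Nkx6-2 difference missed the threshold without 17 of the 20 arrays taken singly (adjusted p from 0.0509 to 0.132), that of Hoxa4 without vagina before replicate 1, vagina after replicate 2, footpad before replicate 1 or footpad after replicate 2 (adjusted p from 0.0501 to 0.0656), and that of Irx1 was 0.98 without vagina before replicate 1 and 0.96 without footpad before replicate 2. Several of these differences include responses of groups under the low level. Pax8 was above it on both arrays only in vagina before and esophagus before, Hoxc4 only in esophagus, Hoxa2 and Hoxc5 only in esophagus before and Hoxc12 only in footpad before, so that their responses in other tissues, such as 0.43 for Pax8 in oral mucosa and 0.50 for Hoxc4 and 0.58 for Hoxa2 in vagina, may be changes within probe background. No group had enough arrays for a test of single outlying values.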

How the results depend on the processing

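No difference called in the fit of all 20 arrays reversed its sign under any alternative, which does not cover differences that were not called. Counts of called members after versus before did not change with limma-trend or with only the arrays compared. With a 1.5-fold limit they became 7 in oral mucosa, 19 in vagina, 5 in esophagus, 11 in footpad and 1 in trachea, the pairs of member and tissue 34 before, 20 after and 9 at both stages, and the F test counts 36 before, 24 after and 38 for the responses. Without the lowest 40% of probe sets esophagus had 0 calls, since the Hoxc4 probe set was not tested, and the vagina count stayed at 11. Centering each array on its median gave 3 pairs at both stages, and 0.99 for Meis2 in oral mucosa after and 0.98 for the Pitx1 range after. It moved the median of all probe sets in oral mucosa to -0.09, against 0.05 without it, and the split of calls there to 349 higher and 828 lower, against 438 and 628 (in vagina 118 and 579, against 156 and 490). Without single arrays the counts were 2 to 2 in oral mucosa, 10 to 11 in vagina, 1 to 2 in esophagus (2 without esophagus before replicate 2), 4 to 6 in footpad and 0 to 0 in trachea. The pairs were then 13 to 19 before, 9 to 11 after and 1 to 3 at both stages, the F test counts 21 to 26 before, 12 to 15 after and 23 to 31 for the responses, and the mean response 0 to 0. With 1 array left in a group, it was assumed to vary like the other groups.

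Equal replicate numbers did not pair the arrays (correlation of deviations -0.15 to 0.03). With the replicate block the counts were 2, 11, 1, 5 and 0 in oral mucosa, vagina, esophagus, footpad and trachea, the pairs 17, 9 and 2, and the F test counts 22, 14 and 24, Hoxa4 being lost (adjusted p = 0.0963). A crossed pairing in oral mucosa, chosen after seeing the data, left 2 calls. Members above the low level in all groups numbered 60 with the 90th, 42 with the 95th (chosen after seeing the data) and 22 with the 99th percentile of the 59 olfactory receptor probe sets, against 39.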
